A study of Mus musculus with 6 samples.

Results

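The miR-200 family is a set of 5 miRNAs made from 2 short gene clusters: miR-200b, miR-200a and miR-429 come from the first, and miR-200c and miR-141 from the second. Its members were taken from a table of short RNAs bound to Argonaute in mouse brain, as every read whose miRNA label was mmu-miR-200a-3p, mmu-miR-200a-5p, mmu-miR-200b-3p, mmu-miR-200b-5p, mmu-miR-200c-3p, mmu-miR-141-3p or mmu-miR-429-3p. The prefix mmu stands for mouse and is mostly left out of the names. These are 7 of the 1101 miRNA labels in the table, and they hold 2315 of its 143934 read sequences. None of the 2315 sequences carried a label of another miRNA as well. The levels and isomiRs of these strands were set against the age of the mice, the spread between libraries and the 2 clusters.

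Argonaute (Ago) proteins hold a short RNA and use its first bases to find target mRNAs, and they form the core of the RNA-induced silencing complex (RISC). Short RNAs were recovered with a FLAG-tagged GW182 peptide that binds Ago proteins (Ago-RP-Seq), from cortex and hippocampus combined, and RNA of 19-35 nt was cut from a gel. There were 3 libraries of BL6 mice 2 months old (2M) and 3 libraries of BL6 mice 18 months old (18M). The study's methods give the mice as purchased males of C57BL/6J. The question asked of the 2 ages was whether the content of RISC changes as the brain gets older. Each replicate is a sample of its own in the labels, which do not say that each is a separate animal, so the spread between replicates may in part be technical. Levels are given as RPM, the read count scaled to a common library size. The libraries held between 19272046 and 25080484 reads, and 3 reads were worth 0.120 to 0.156 RPM, below every level of the 7 members.

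Members of the miR-200 family are best known from epithelial cells, where they repress the transcription factors Zeb1 and Zeb2 and with them the passage of epithelial cells to a mesenchymal state. In the nervous system they are known from the olfactory epithelium and olfactory bulb, where they act in the making of new neurons. A miRNA hairpin yields 2 strands. The guide, here the 3p strand of each hairpin, is loaded into Ago far more often than the passenger on the 5p side, and the seed (bases 2 to 8 of the strand) decides which mRNAs are bound. The 5 guides carry 2 seeds that differ in 1 base, so that each cluster makes guides of both kinds.

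The mature sequences show how the family is built and which members can be told apart by a read. They are RefSeq sequences (GRCm38.p6), matched by name for all 7 members, with the seed in capitals. miR-200a-3p and miR-141-3p share the seed AACACUG.
miR-200a-3p: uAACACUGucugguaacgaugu
miR-141-3p: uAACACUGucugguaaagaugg
The remaining guides share the seed AAUACUG.
miR-200b-3p: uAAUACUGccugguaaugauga
miR-200c-3p: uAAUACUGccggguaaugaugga
miR-429-3p: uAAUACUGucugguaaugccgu
The 2 passengers among the members share a seed of their own, AUCUUAC.
miR-200a-5p: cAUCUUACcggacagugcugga
miR-200b-5p: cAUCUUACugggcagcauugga
Counted from the 5′ end and reading from miR-200b-3p to miR-200a-3p, the seeds differ by U4C. miR-200a-3p and miR-141-3p differ over their first 22 bases by C17A and U22G, and miR-200b-3p and miR-200c-3p by U11G and A22G. These differences fall inside a read of the usual length, and no other label in the table with a RefSeq sequence had the bases AACACUG or AAUACUG at positions 2 to 8.

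All 5 hairpins lie on the minus strand. On chromosome 4 the order of transcription is Mir200b (chr4:156055681-156055750), Mir200a (chr4:156054896-156054985) and Mir429 (chr4:156053905-156053987), a stretch of 1846 bases with 695 and 908 bases between neighbours. On chromosome 6, Mir200c (chr6:124718322-124718390) and Mir141 (chr6:124717914-124717985) are 336 bases apart. The GENCODE annotation of GRCm38 (release M21) places the chromosome 4 hairpins inside the protein-coding gene Ttll10 and the non-coding gene Gm13648, both on the same strand. Mir200b and Mir200a overlap no exon of either gene, whereas Mir429 lies in an exon of the Gm13648 transcript ENSMUST00000138361. Both chromosome 6 hairpins lie inside Gm15884, annotated as antisense, and neither overlaps an exon of it, while Mir141 overlaps an exon of the short model Gm29008.

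The Mir200a hairpin is printed to show how far apart in level 2 strands of a single precursor can be; the mature strands are in capitals, the 5p strand first.
Mir200a: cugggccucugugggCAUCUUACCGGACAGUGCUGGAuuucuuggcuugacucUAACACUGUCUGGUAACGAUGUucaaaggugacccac

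Summed over the 7 members, the family made up 37996, 40667 and 45221 RPM of the 2M libraries and 40248, 48287 and 29117 RPM of the 18M libraries. The highest and the lowest library were both 18M, and the ages overlapped. As a share of all reads this was 2.91% in 18M replicate 3 (95% Wilson interval 2.91 to 2.92%, which covers counting error only) and 4.83% in 18M replicate 2 (4.82 to 4.84%). A brain with fewer cells that make these miRNAs and a brain with less of them per cell cannot be told apart in such bulk libraries.

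mmu-miR-200a-3p was the most abundant member and the 10th most abundant of all miRNA labels. It was found at 18036, 20111 and 21112 RPM at 2M and at 20177, 24125 and 13629 RPM at 18M, and 635 read sequences carried its label. A mean of 19532 RPM made it 1.95% of everything bound to Ago in these libraries. Because a small RNA gives 1 read whatever its length, levels can be set side by side between members, but how well each strand ligates to the adapters was not measured.

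miR-429-3p and miR-200b-3p, which share the seed AAUACUG, came next. mmu-miR-429-3p had 6478, 7551 and 8361 RPM at 2M and 6947, 8752 and 5440 RPM at 18M. mmu-miR-200b-3p had 6693, 6397 and 7619 RPM at 2M and 6051, 8833 and 4900 RPM at 18M. Their order was not fixed: the ratio of miR-429-3p to miR-200b-3p ran from 0.97 to 1.18 over the 6 libraries, on both sides of 1. For both, the lowest level was in 18M replicate 3 and the highest in 18M replicate 2.

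The guides of the chromosome 6 cluster were lower. mmu-miR-141-3p was found at 4080, 4322 and 5175 RPM at 2M and at 4969, 3450 and 3452 RPM at 18M, while mmu-miR-200c-3p was found at 2484, 2062 and 2707 RPM at 2M and at 1895, 2853 and 1529 RPM at 18M. miR-141-3p lay below miR-200b-3p and miR-429-3p and above miR-200c-3p in each of the 6 libraries. The distance between the guides of this cluster was small in 18M replicate 2, where the ratio of miR-141-3p to miR-200c-3p was 1.21, against 1.64 to 2.62 in the other libraries.

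**Figure D1:**
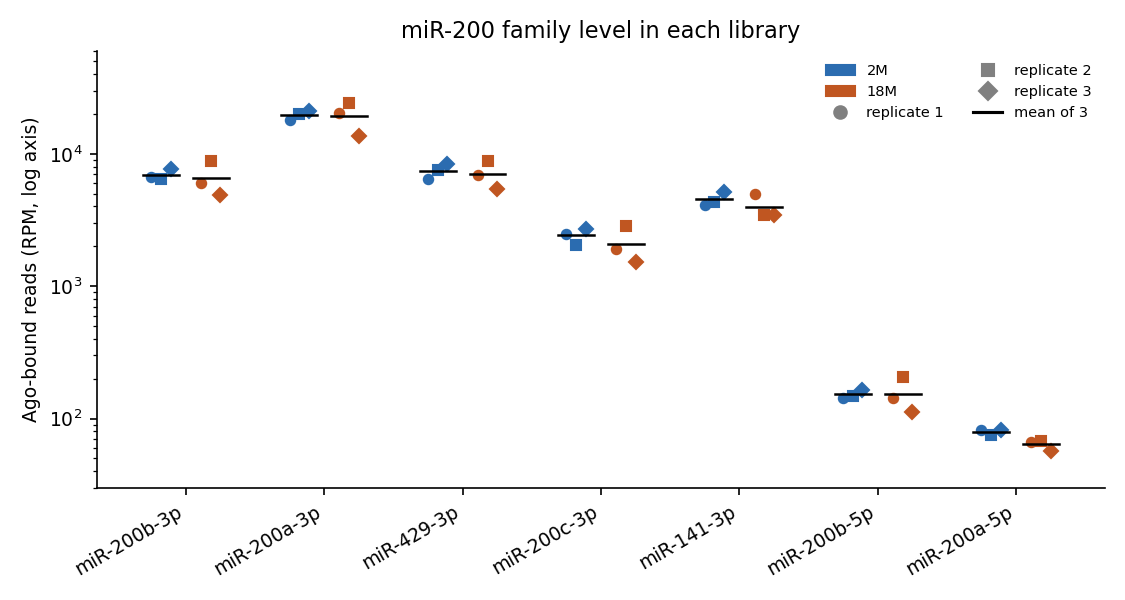
Level of each miR-200 family member in each library, in RPM on a log axis; colours give the age, marker shapes the replicate, and black lines the mean of 3 libraries. The 5 guides (3p strands) lie between 1529 and 24125 RPM and the 2 passengers (5p strands) between 56.9 and 206 RPM, and miR-200a-5p is the only member whose 2M and 18M libraries do not overlap.

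The 2 clusters kept an uneven but fairly steady balance. The cluster of miR-200b, miR-200a and miR-429 held 31432, 34284 and 37338 RPM at 2M and 33384, 41984 and 24137 RPM at 18M, and the cluster of miR-200c and miR-141 held 6563, 6384 and 7883 RPM at 2M and 6864, 6303 and 4981 RPM at 18M. In 5 of the libraries the share of miR-200c and miR-141 in the family was 15.7 to 17.4%, and in 18M replicate 2 it was 13.1%. Members with the 2 seeds were more evenly matched, since AACACUG is carried by the most abundant guide and AAUACUG by 3 guides: the AACACUG guides made up 57.4 to 62.8% of guide reads, and the ages overlapped.

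Counterparts in the 2 clusters, which share a seed, had unlike ratios. miR-200b-3p exceeded miR-200c-3p by 2.69, 3.10 and 2.81 times at 2M and by 3.19, 3.10 and 3.20 times at 18M, a narrow range. miR-200a-3p exceeded miR-141-3p by 4.42, 4.65 and 4.08 times at 2M and by 4.06, 6.99 and 3.95 times at 18M. The value of 6.99 is that of 18M replicate 2. With 3 libraries against 3 the exact two-sided permutation test cannot go below 0.1, so it could not separate the ages here. On log2 ratios this exact test gave p = 0.2 for miR-200b-3p over miR-200c-3p, whose 18M values overlap only the highest 2M value, and p = 1 for miR-200a-3p over miR-141-3p.

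miR-141-3p parted most from the other 4 guides in 18M replicate 2. Set against its own mean over the 6 libraries on the log2(RPM + 1) scale, each of miR-200b-3p, miR-200a-3p, miR-429-3p and miR-200c-3p was raised in 18M replicate 2, by 0.41, 0.33, 0.29 and 0.37. In the same library miR-141-3p was below its mean (-0.28). In 18M replicate 3 all 5 guides were below their means, from -0.28 for miR-141-3p to -0.53 for miR-200c-3p. Over the 6 libraries, Pearson correlations among the 4 guides ran from 0.81 to 0.96, and those between miR-141-3p and each of them from 0.09 to 0.32. The low values rest on 18M replicate 2: without it, miR-141-3p correlated with the 4 guides at 0.63 to 0.92, and the 4 among themselves at 0.72 to 0.97 (n = 5). Without 18M replicate 3, where all guides were low, the ranges were -0.56 to -0.22 and 0.46 to 0.91. These are descriptions over 5 or 6 libraries, and all points of a library share its depth and its scaling.

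The other strand of the miR-141 hairpin went with the 4 guides in that library. miR-141-5p, the passenger, had 43.1, 44.0 and 46.8 RPM at 2M and 47.7, 64.6 and 39.7 RPM at 18M, so that its highest level was in 18M replicate 2. The ratio of miR-141-3p to miR-141-5p was 94.7, 98.2 and 110 at 2M and 104, 53.4 and 87.0 at 18M. The reads of miR-141-3p in 18M replicate 2 also had a different make-up, with 36.3% of them in the main read sequence against 41.5 to 52.0% in the other libraries, and with 3.51% carrying another 6mer seed against 1.79 to 2.77%. The cause of this was not tested.

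**Figure D2:**
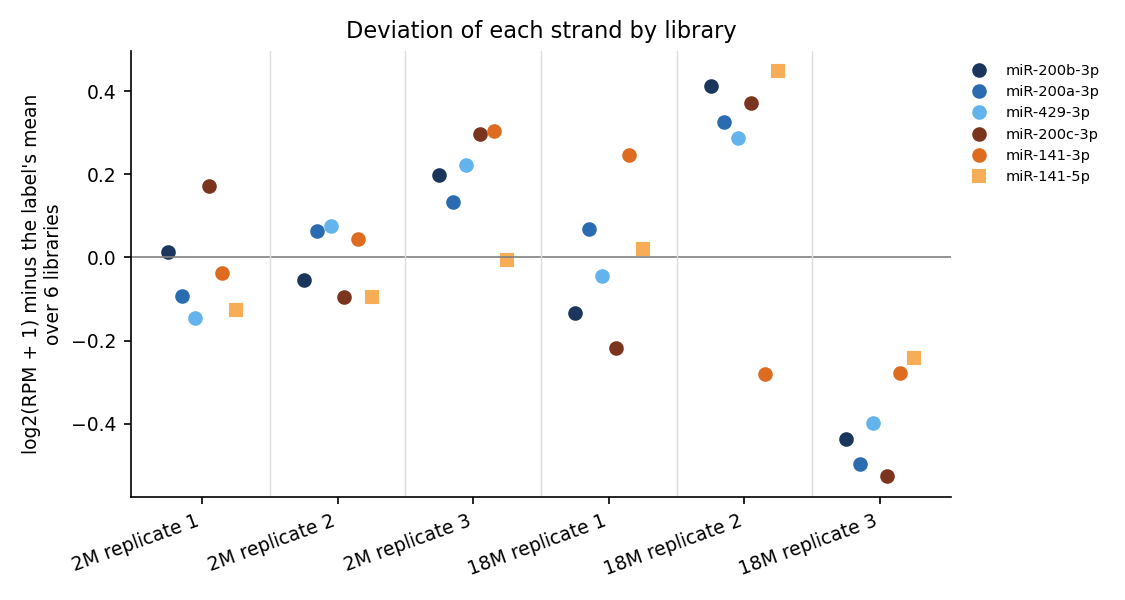
Deviation of each strand from its own mean over the 6 libraries, on the log2(RPM + 1) scale, for the 5 guides (circles) and for miR-141-5p (square), by library. In 18M replicate 2, 4 guides and miR-141-5p lie above 0 and miR-141-3p lies at -0.28; in 18M replicate 3 all 6 lie below 0.

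Within an age, the guides varied more than the middle of the table. The within-age standard deviation of log2(RPM + 1) was 0.35 for miR-200c-3p, 0.32 for miR-200b-3p, 0.31 for miR-200a-3p, 0.28 for miR-429-3p and 0.25 for miR-141-3p. The median over all 474 labels with a mean of at least 10 RPM was 0.20, and it was 0.20 also among labels with a mean of at least 1000 RPM. miR-200a-5p was the steadiest member, at 0.11. The spread of each of the 5 guides was larger at 18M than at 2M: the standard deviation of miR-200a-3p was 1569 RPM at 2M and 5301 RPM at 18M, and that of miR-429-3p 944 and 1658 RPM (n = 3 each). Outside the family it was larger at 18M for miR-124-3p too (1386 and 23232 RPM), but not for miR-125b-5p (5582 and 4985 RPM). How many of all labels had a larger spread at 18M was not counted.

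None of the 7 members differed between the ages past the threshold. In the fit over all labels (limma on log2(RPM + 1), Benjamini-Hochberg adjusted p under 0.05), 0 of 7 members were called, against 23 of 474 labels (4.85%), 21 of them lower at 18M and 2 higher. At an unadjusted p under 0.05, 1 member (miR-200a-5p) and 85 of all labels passed. edgeR and DESeq2, run on whole reads recovered from the RPM, also called 0 of 7, and in both 0 had an unadjusted p under 0.05. The estimates for the 7 members were all below 0, with a median log2 fold change of -0.11, while the median over all labels tested was -0.07. Scaling by the median of ratios or by TMM raised the median of all labels by 0.09 and 0.08, and under both the estimates of miR-200a-3p and miR-200b-5p turned above 0, so no common direction can be given.

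The intervals show how large a change these 6 libraries leave room for. For miR-200a-3p the log2 fold change (18M over 2M) was -0.07 ± 0.21 (SE), with a 95% interval from -0.58 to 0.45 and an adjusted p of 0.896 in limma. For miR-429-3p it was -0.10 ± 0.20 (-0.58 to 0.38, adjusted p = 0.827), and for miR-200b-3p -0.11 ± 0.22 (-0.64 to 0.43, adjusted p = 0.835). The chromosome 6 guides gave -0.21 ± 0.19 for miR-141-3p (-0.66 to 0.24, adjusted p = 0.608) and -0.25 ± 0.25 for miR-200c-3p (-0.84 to 0.34, adjusted p = 0.656). These intervals are wide, and a p that misses the threshold does not show that the levels were equal. 18M replicate 3 decides the sign for some members: without it the log2 fold change was 0.16 for miR-200a-3p, 0.09 for miR-200b-3p, 0.16 for miR-200b-5p and 0.07 for miR-429-3p.

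**Figure D3:**
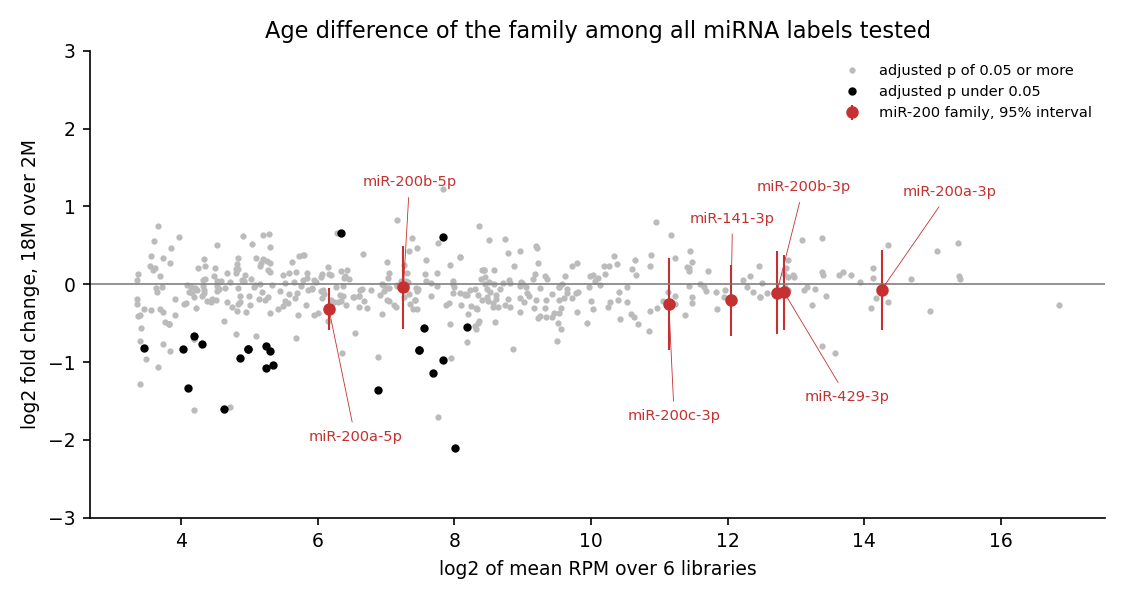
Age difference of all 474 miRNA labels with a mean of at least 10 RPM: log2 fold change (18M over 2M, on the log2(RPM + 1) scale) against log2 of the mean RPM. Grey points had an adjusted p of 0.05 or more, black points one under 0.05, and red points are the 7 family members with their 95% intervals, 6 of which span 0.

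The passengers were rare in RISC. mmu-miR-200b-5p had 144, 149 and 165 RPM at 2M and 142, 206 and 111 RPM at 18M, and it followed its guide closely. The 5p share of the miR-200b hairpin was 2.11, 2.28 and 2.12% at 2M and 2.29, 2.28 and 2.22% at 18M. The log2 fold change of miR-200b-5p was -0.04 ± 0.22 (adjusted p = 0.929 in limma).

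mmu-miR-200a-5p was the only member whose ages did not overlap. It had 81.4, 75.7 and 81.8 RPM at 2M and 67.1, 67.8 and 56.9 RPM at 18M, every 18M library lying below every 2M library. The same was true of 91 of the 474 labels tested (19.2%). Its log2 fold change was -0.32 ± 0.11 (SE; 95% interval -0.59 to -0.05), with an unadjusted p of 0.0277 and an adjusted p of 0.215 in limma, so it was not called. The rank order did not carry over to the strand share: miR-200a-5p made up 0.45, 0.37 and 0.39% of its hairpin's reads at 2M and 0.33, 0.28 and 0.42% at 18M, and these overlap (95% Wilson interval in 18M replicate 3, 0.393 to 0.439%).

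The other 5p strands ranged down to the limit of detection. miR-200c-5p had 3.99 to 6.61 RPM, and miR-429-5p had between 0 and 10 reads per library. In 18M replicate 2, 0 of 205244 reads of the miR-429 hairpin were 5p, which allows a share of up to 0.00146%. The 5 hairpins were thus unlike in how much of the 5p strand was bound to Ago: 2.11 to 2.29% for miR-200b, 0.90 to 1.84% for miR-141, and well under 1% for the others.

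The family reads were mostly the annotated strands with frayed 3′ ends. The main read of each guide had 22 nt, and its share of the label's reads ran from 36.2% for miR-200c-3p to 51.8% for miR-429-3p. For miR-200c-3p the main read is shorter than the annotated strand of 23 nt, a form that held 27.7% of its reads. These main reads and the next most abundant ones, given here with their seed in capitals, show that the ends differ by single bases on the 3′ side.
miR-200a-3p, main read, 45.0% of its reads: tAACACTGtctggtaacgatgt
miR-200a-3p, next read, 39.1%: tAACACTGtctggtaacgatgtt
miR-429-3p, main read, 51.8%: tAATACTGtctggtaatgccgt
miR-429-3p, next read, 28.9%: tAATACTGtctggtaatgccg
miR-200a-3p was bound as a 22 nt and a 23 nt form in similar amounts, whereas miR-429-3p had a 21 nt second form. The 5′ ends were precise: 1.79 to 5.37% of the reads of a guide carried a seed other than its usual 6mer. miR-200b-5p was the exception among the members, with 19.9, 18.0 and 17.4% of its reads at 2M and 21.9, 22.2 and 22.6% at 18M carrying another seed. The 18M libraries all lay above the 2M libraries in this 1 of 7 members, as in 5.27% of all labels. The next but one of its reads starts 1 base downstream, and has the seed TCTTACT in place of ATCTTAC.
miR-200b-5p, main read, 35.0%: cATCTTACtgggcagcattgg
miR-200b-5p, shifted read, 6.77%: aTCTTACTgggcagcattgga

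In part of the guides, reads of the 18M libraries were slightly shorter than those of the 2M libraries and more often held bases not found in the hairpin, though no measure passed its test. Of 22 measures compared between the ages (the share of the main read, the share with another seed, the mean length and the share not matching the hairpin for each of the 5 guides, and the 5p share of 2 hairpins), 7 did not overlap. Each of these had p = 0.1, the smallest the exact two-sided permutation test allows, and an adjusted p of 0.314 over the 22 measures, so none was called. The differences in length were small. Mean length was 21.85, 21.82 and 21.83 nt at 2M and 21.70, 21.74 and 21.75 nt at 18M for miR-200b-3p, and it was lower at 18M without overlap for miR-200a-3p (22.46 ± 0.03 and 22.38 ± 0.05 nt, SD, n = 3) and miR-200c-3p (22.27 ± 0.07 and 22.15 ± 0.03 nt) as well. Over all labels the mean length was lower at 18M without overlap in 12.2%, here in 3 of 5 guides and in the passenger miR-200a-5p (21.86 nt in each 2M library, 21.82, 21.73 and 21.85 nt at 18M), which was not among the 22 measures.

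Reads with bases not in the hairpin are those that match no stretch of it from end to end. Most of them matched but for their last 1 to 3 bases, and the rest were at most 1.33% of the reads of a guide. For miR-429-3p, 15.9, 15.2 and 14.9% of reads at 2M and 17.0, 18.1 and 16.7% at 18M held such bases. For miR-200c-3p the values were 16.9, 15.5 and 15.7% at 2M and 17.4, 18.2 and 18.2% at 18M, and for miR-200b-3p 16.6, 16.3 and 15.7% at 2M and 16.6, 17.4 and 17.0% at 18M. In these 3 of 5 guides the 18M libraries all lay above the 2M libraries, against 13.4% of the labels with a hairpin in the reference. For miR-200b-3p this was a near tie, with 16.59% in 2M replicate 1 and 16.60% in 18M replicate 1. miR-141-3p (13.2, 13.3 and 15.99% at 2M, 16.7, 17.5 and 15.2% at 18M) and miR-200a-3p (7.40 to 8.42% and 8.20 to 9.11%) overlapped. The 7th measure was the main read of miR-429-3p, which made up 54.2 ± 1.54% of its reads at 2M and 49.1 ± 0.36% at 18M, a pattern seen in 10.3% of all labels and in 1 of 5 guides here.

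**Figure D4:**
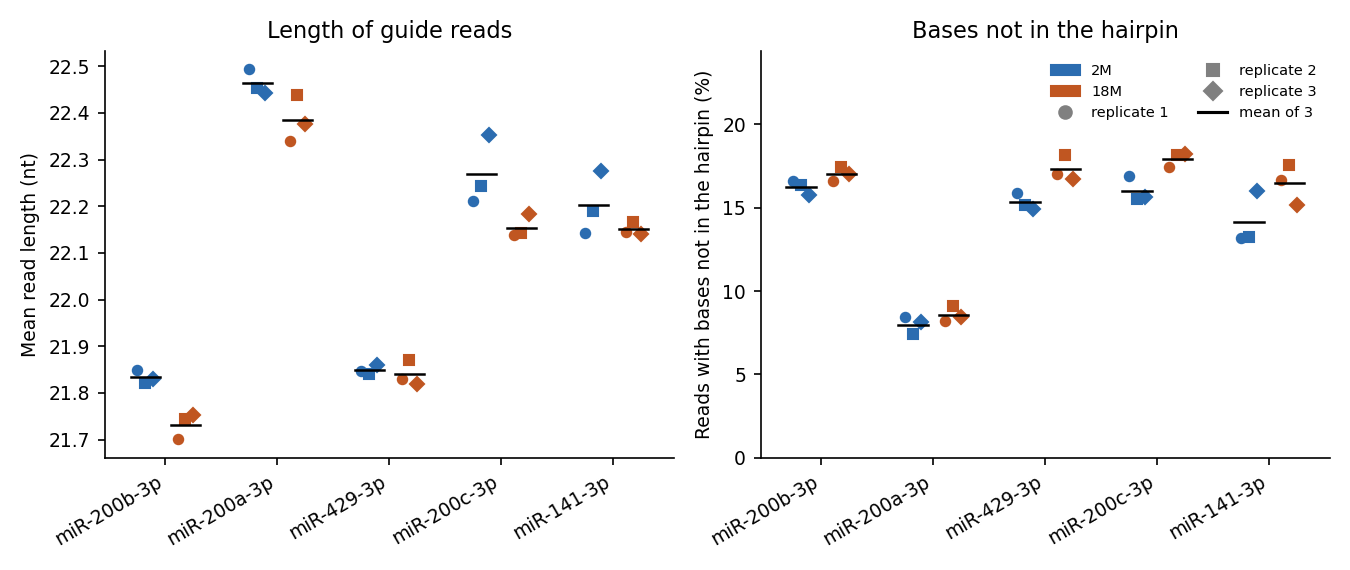
Mean read length in nt (left) and share of reads with bases not in the hairpin in percent (right) for the 5 guides, by library; colours give the age, marker shapes the replicate, and black lines the mean of 3 libraries. Mean length lies between 21.70 and 22.49 nt, and the length axis does not start at 0; miR-200b-3p lies at 21.82 to 21.85 nt at 2M and at 21.70 to 21.75 nt at 18M.

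A finer view, chosen after these values were seen, gave the read classes behind this. Reads of 20 nt made up 4.97% of miR-200b-3p at 2M and 7.73% at 18M, 2.99 and 4.66% of miR-200c-3p, 2.61 and 4.11% of miR-141-3p, and 0.95 and 1.37% of miR-200a-3p. In these 4 guides the 18M libraries were all above the 2M libraries, which was so for 9.7% of all labels. miR-429-3p overlapped, with 1.33 to 1.65% at 2M and 1.59 to 1.66% at 18M. Reads that matched the hairpin except for their last 2 or 3 bases were 5.69% of miR-429-3p at 2M and 7.27% at 18M, 2.27 and 2.91% of miR-200b-3p, 2.30 and 2.87% of miR-200c-3p, and 0.804 and 1.002% of miR-200a-3p. These 4 guides did not overlap either, against 13.2% of the labels with a hairpin. The guides come from 2 transcripts and the same 6 libraries, so they are not independent of each other, and the cause was not tested.

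Single read sequences of the family gave at most 1 call, which depended on the tool. Of the 2315 member sequences, 102 had a mean of at least 10 RPM and were tested, and they held 93.2 to 97.7% of the reads of each guide. In limma 0 were called, against 12 of 3281 read sequences (0.366%), and in edgeR 0 as well. At an unadjusted p under 0.05, 4 of the 102 passed in limma, against 13% of all read sequences, and 2 of the 4 had an estimate above 0. The ages did not overlap in 4 of the 102 sequences, 1 higher at 18M and 3 lower. This share was not counted over all read sequences. The lowest p belonged to a 24 nt form of miR-429-3p, named after its values were seen. It has AG after the main read, bases that the hairpin does not have there.
miR-429-3p, 24 nt: taatactgtctggtaatgccgtag
It was found at 43.8, 42.8 and 48.3 RPM at 2M and at 102, 110 and 62.9 RPM at 18M. Each 18M library lay above the 2M libraries, and the log2 fold change was 0.97 ± 0.23 (adjusted p = 0.175 in limma). DESeq2, on recovered reads, called this sequence alone among the 102, with a log2 fold change of 1.01 ± 0.27 and an adjusted p of 0.00828; over all read sequences it called 4.62%.

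The study scores each short RNA by its 6mer seed (bases 2 to 7) with the percent viability of cells transfected with an siRNA of that seed, averaged over 3 mouse cell lines. AACACU, the 6mer of miR-200a-3p and miR-141-3p, had a viability of 64.6%, and AAUACU, that of miR-200b-3p, miR-200c-3p and miR-429-3p, 82%. The passengers' AUCUUA had 87.5%. All 3 lie above the mean over all reads, which was 57.96, 58.01 and 58.16% at 2M and 57.87, 57.82 and 57.42% at 18M. This mean was lower at 18M without overlap, and no test was run on it. The mean over family reads was 71.2 to 72.1%, and there the ages overlapped.

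Both guide seeds were largely the family's own. Reads of the 7 members were 98.4% of all reads with AACACU, the 9th most abundant seed in the table, and 98.6% of those with AAUACU, the 16th. Summed by seed, AACACU had 21715, 24175 and 26001 RPM at 2M and 24968, 27021 and 16891 RPM at 18M. AAUACU had 15223, 15627 and 18283 RPM at 2M and 14548, 19787 and 11574 RPM at 18M. The ages overlapped, and 0 of the 3 family seeds were called by limma, against 10 of 1105 seeds (0.905%), with log2 fold changes of -0.09 ± 0.19 for AACACU, -0.13 ± 0.20 for AAUACU and -0.18 ± 0.18 for AUCUUA. In edgeR and DESeq2 0 of the 3 were called either, and 0 had an unadjusted p under 0.05 in any of the tools.

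Some of the family's reads formed a sizeable part of the RISC content with a high seed viability. A cut at 70% leaves out reads with AACACU (64.6%), the 6mer of miR-200a-3p and miR-141-3p. These guides made up 57.4 to 62.8% of guide reads. Of all reads with a viability of at least 70%, 6.25, 6.13 and 7.33% at 2M and 5.95, 8.85 and 4.94% at 18M were miR-200 family reads. This share was highest in 18M replicate 2 and lowest in 18M replicate 3, as the family level was.

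miR-429-3p is split from its family in the second annotation that the table carries, in which each read has a class of RNA. All reads of the other 6 members were classed as miRNA there, while 99.9% of miR-429-3p reads were classed as mRNA, with Gm13648, the transcript whose exon holds Mir429, as their match. These reads made up 12.0, 13.7 and 14.7% of all reads of the mRNA class at 2M and 13.1, 18.0 and 11.8% at 18M. The values overlapped, and they follow the level of miR-429-3p.

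The labelled tissue was checked with marker miRNAs of brain and of other cells that the dissection could hold. The 7 brain markers, among them the neuronal miR-124-3p, summed to 213872 to 270292 RPM, and the 2 oligodendrocyte markers to 4204 to 7050 RPM. Markers of muscle (195 to 355 RPM), liver (6.17 to 7.68 RPM) and of microglia and other immune cells (766 to 987 RPM) were low. 3 erythrocyte miRNAs summed to 2540, 3630 and 3677 RPM at 2M and to 2882, 1300 and 2461 RPM at 18M, lowest in 18M replicate 2, where 4 of the family's guides were highest. No marker was at 0 in any library, none of these 21 markers was called between the ages in limma, edgeR or DESeq2 (of 18 tested, 0 had an unadjusted p under 0.05 in limma), and the part of blood in the family's levels was not tested.

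Other miRNAs of epithelial, sensory and endocrine cells were present too. The list held 8 miRNAs, all tested and 0 called in limma or edgeR (2 at an unadjusted p under 0.05 in limma), with a summed level of 5027 to 9513 RPM and a median log2 fold change of -0.35. miR-182-5p, of the sensory miR-183/96/182 cluster, was the most abundant, with 2363, 2499 and 2603 RPM at 2M and 2547, 4583 and 2058 RPM at 18M. miR-183-5p had 1047, 995 and 1179 RPM at 2M and 1085, 1995 and 752 RPM at 18M. Both, like 4 of the family's guides, were highest in 18M replicate 2 and lowest in 18M replicate 3, and miR-96-5p was highest in 18M replicate 2 as well (2425 RPM, against 1308 to 2239 RPM elsewhere).

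miR-375-3p, a miRNA of endocrine cells, stood apart. In 2M replicate 1 it reached 1124 RPM, whereas its range elsewhere was 31.0 to 42.2 RPM, and miR-7a-5p and miR-7b-5p were raised in the same library (1397 and 821 RPM, against 254 to 314 and 118 to 144 RPM). The family was not raised there: its sum was 37996 RPM in that library, the lowest of the 2M libraries. Of the remaining list members, miR-203-3p, a miRNA of skin, had 45.5 to 47.0 RPM at 2M and 58.7 to 61.1 RPM at 18M (adjusted p = 0.0936 in limma). miR-205-5p, which also represses Zeb factors in epithelia, had 10.2 to 21.1 RPM at 2M and 6.65 to 7.57 RPM at 18M (adjusted p = 0.106). DESeq2 called both, with adjusted p-values of 0.00299 for miR-203-3p and 0.0131 for miR-205-5p. Over all labels it called 9.73%. With a mean of 11.2 RPM, miR-205-5p passed the filter at 10 RPM only through its 2M libraries (mean 15.3 RPM, against 7.10 RPM at 18M). Without 2M replicate 1 it fell below the filter and was not tested. Its p-values therefore cannot be taken as support for an age difference.

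**Figure D5:**
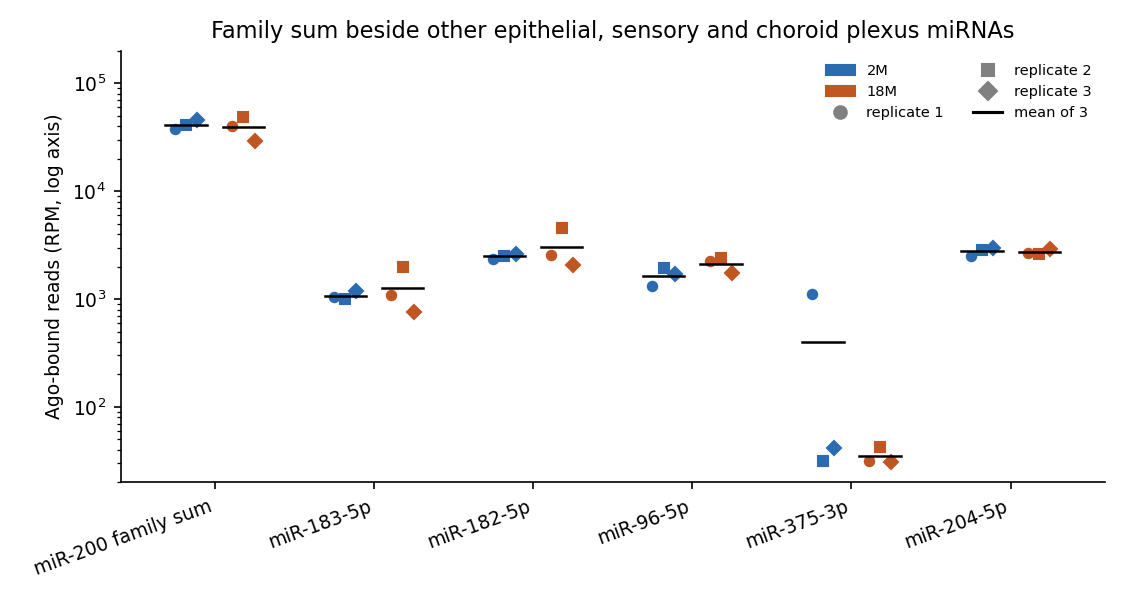
Summed level of the miR-200 family beside miRNAs of sensory (miR-183-5p, miR-182-5p, miR-96-5p), endocrine (miR-375-3p) and choroid plexus (miR-204-5p) cells, in RPM on a log axis; colours give the age, marker shapes the replicate, and black lines the mean of 3 libraries. The family sum, miR-183-5p and miR-182-5p are highest in 18M replicate 2, and miR-375-3p stands at 1124 RPM in 2M replicate 1 alone.

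The choroid plexus, an epithelium inside the brain ventricles, and ciliated cells were represented by 5 miRNAs, of which 4 were tested and 0 called in limma, edgeR or DESeq2 (1 at an unadjusted p under 0.05 in limma, median log2 fold change 0.05). Their sum was 2913 to 3453 RPM, and it was lowest in 18M replicate 2. miR-204-5p, the most abundant, had 2527, 2851 and 2987 RPM at 2M and 2679, 2622 and 2894 RPM at 18M. miR-449a-5p, of multiciliated cells, had 14.6 to 23.2 RPM at 2M and 25.1 to 28.8 RPM at 18M (adjusted p = 0.217 in limma).

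Among the 466 other labels tested, the pattern most like that of the family over the 6 libraries, by the Pearson correlation of log2(RPM + 1) with the summed log2(RPM + 1) of the 7 members, was that of miR-125a-5p (0.93). It was followed by miR-9-3p (0.87), miR-124-3p (0.82), miR-183-5p (0.81) and miR-125b-5p (0.79). miR-125a-5p had 9424, 10858 and 10949 RPM at 2M and 9169, 10343 and 6848 RPM at 18M. These labels are among the more abundant in the table and were each lowest in 18M replicate 3, and the libraries share their scaling with the family, so the likeness is a description of 6 points.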

How the data were processed

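The deposited table lists each read sequence with its RPM in the 6 libraries, its miRNA label, a second class and the score of its 6mer seed, a percent viability averaged by the authors over 3 mouse cell lines. Per the study's methods, the authors trimmed and cleaned the reads, compiled them into counts and removed rare reads (the lowest total seen is 6 reads). They then matched the reads to small RNA lists with BLAST, removed artificial sequences and scaled each library to RPM. The RPM are whole multiples of the worth of 1 read in each library: 100% of the values lay within 0.05 of a whole number, which gives the reads and the depth. Of columns of single samples outside the 6 libraries there were 0. Between any 2 libraries the chi-square over its degrees of freedom was 10.5 or more, so no library was a copy of another.

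RPM were summed per label (labels split at their separators), per read sequence and per 6mer seed. Those whose mean reached 10 RPM were fitted with limma 3.58.1 (R 4.3.3; lmFit, eBayes with trend) on log2(RPM + 1), with age as the only term and Benjamini-Hochberg adjustment over all features. A fold change on this scale understates that of low labels. Values per library were compared by an exact two-sided permutation test. edgeR 4.0.16 and DESeq2 1.42.0 were run on the recovered reads as alternatives, beside other pseudocounts, filters, scalings, label rules, a replicate block and leaving out each library. The fit was tested on simulated data with changes larger than those estimated for any member. That test therefore does not show its power for changes as small as theirs. Of the 1101 labels, 924 matched a RefSeq mature sequence. Python 3.11.15, pandas 2.3.3, scipy 1.17.1 and matplotlib 3.10.9 were used.

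Named are the 7 members, the other strands of their hairpins, their main reads and reads called by limma, the 5 labels most like the family, and members of the epithelial and choroid plexus lists that do not overlap between the ages or are the most abundant of their list. A 24 nt read of miR-429-3p, which limma did not call, and miR-96-5p, miR-375-3p, miR-7a-5p and miR-7b-5p fall outside this rule and were named after their values were seen. The members and lists were chosen with earlier results of these data known.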

Additional observations from a re-analysis of the deposited data

Results flagged for a closer look

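Reads without a miRNA label were not part of the family's levels, but 219 of their sequences held bases 2 to 16 of a family guide. Their summed level was 97.3, 102 and 126 RPM at 2M and 99.0, 121 and 75.1 RPM at 18M, a mean of 103 RPM, or 0.257% of the family's reads. This is above the limit that a count of 0 allows, and the ages overlapped. miR-200a-3p and miR-141-3p have the same bases at these positions, and 92 sequences with 46.2 to 70.6 RPM held them. Sequences with those of miR-429-3p had 30.7 RPM in 2M replicate 3 and 9.82 to 16.2 RPM in the other 5 libraries.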

How the results depend on the processing

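With 3 libraries against 3, leaving out any library changed the number of calls: 0 to 15 miRNA labels in place of 23 (0 without 2M replicate 2 or 3), 0 in each case in place of 12 read sequences, and 0 to 38 seeds in place of 10 (38 without 18M replicate 2). Labels called were 2 under a filter at a mean of 100 RPM, 3 with no filter, 14 with median-of-ratios scaling, 13 with TMM, 14 in edgeR, 46 in DESeq2, 15 with single-label reads or with labels sharing a read, and 12 with main-seed reads. Read sequences called were 20 and 0 under filters at 1 and 100 RPM and 151 in DESeq2; seeds were 5 and 4 with those filters, 18 with median-of-ratios scaling and 50 in DESeq2. The cause was not tested.

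No member passed an adjusted p of 0.05 in any of the 139 alternatives, 122 of which kept its direction. Filters, the replicate block, limma without the trend and the rules for reads with several labels leave a member's fold change unchanged. Their direction was thus fixed in advance, and all 17 turns came from scalings, edgeR, DESeq2 or a left-out library. The log2 fold change of miR-200a-3p became 0.027 with median-of-ratios scaling, 0.012 with TMM, 0.066 in edgeR and 0.078 in DESeq2, and that of miR-200b-5p 0.056, 0.041, 0.106 and 0.117. In edgeR and DESeq2 miR-200b-3p gave 0.036 and 0.048, and miR-429-3p 0.013 and 0.026. Leaving out each library gave -0.25 to 0.16 for miR-200a-3p, -0.34 to 0.087 for miR-200b-3p, -0.28 to 0.16 for miR-200b-5p and -0.27 to 0.071 for miR-429-3p. miR-200a-5p stayed between -0.36 and -0.22 in its 19 alternatives; it had no value under the filter at 100 RPM.

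The replicate number as a block left 1 label, 0 read sequences and 0 seeds called. Libraries of the same number deviated apart (r = -0.17, -0.22 and -0.10 over labels), so the number pairs no samples. The correlations between guides without each library were added after the data were seen.

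Of the 22 read measures, the 7 that did not overlap kept their direction in all alternatives run. This was largely fixed in advance, as leaving out a library cannot turn a difference without overlap. No member read had several labels, so only the filter at a mean of 1 RPM could have turned any of these measures. Leaving out each library turned the direction of 9 others: for the main read -4.54 to 3.34 percentage points in miR-141-3p, -1.13 to 1.57 in miR-200b-3p and -1.99 to 0.31 in miR-200c-3p; for another seed -0.41 to 0.45 in miR-141-3p, -0.39 to 0.19 in miR-200a-3p, -0.080 to 0.32 in miR-200b-3p, -0.013 to 0.11 in miR-200c-3p (-0.019 without rare reads, under a mean of 1 RPM) and -0.076 to 0.44 in miR-429-3p; and for mean length -0.026 to 0.00032 nt in miR-429-3p. Means of the clusters and the family moved by less than 1 SD in all 48 alternatives. Most of this was fixed in advance, as leaving out 1 of 3 libraries shifts their mean by less than 1 SD. The rules for reads with several labels change nothing here. Only median-of-ratios scaling could have moved a level further, and it cannot move a share.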
